A study of Arabidopsis thaliana with 8 samples.

Results

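Transcripts of 10 genes of pattern recognition at the plasma membrane were followed in Arabidopsis thaliana: the flagellin receptor gene FLS2, the receptor genes EFR, CERK1, LYK4 and LYK5, the co-receptor and adaptor genes BAK1, BKK1 and SOBIR1, and the cytoplasmic kinase genes BIK1 and PBL1. They were chosen by locus identifier from what their proteins are known to do, with earlier results of these data known. They make up 10 of the 28642 loci in the deposited table. All plants were whole seedlings of the Landsberg erecta accession, 14 days old and grown on GM medium, and were either wild type (WT) or homozygous for smn2 (smn2 -/-). Each genotype was sampled at 0 h and at 4 h of 0.1 µM flg22, an elicitor peptide taken from bacterial flagellin, with 2 libraries per group. The libraries carry the numbers 910 and 918, and the file headers show each number as a sequencing run of its own, so a group holds 1 library from each run. The labels give neither the lesion in smn2 nor whether the paired libraries came from separate batches of plants, and p-values measure the spread between these libraries. Seedlings left without flg22 until 4 h were not analysed here, so flg22, time of day and handling cannot be told apart in any 4 h change.

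Pattern receptors sit in the plasma membrane and bind molecules that microbes share. FLS2 binds flg22 and EFR binds a peptide of bacterial elongation factor Tu, and on binding each recruits a kinase of the SERK family, chiefly BAK1 and also BKK1, as a co-receptor. CERK1 is a LysM receptor kinase that signals the presence of chitin, a polymer of fungal cell walls, together with LYK5, which binds chitin strongly, and LYK4. SOBIR1 is a receptor kinase that partners receptor-like proteins, which lack a kinase domain of their own. BIK1 and PBL1 are closely related cytoplasmic kinases that are held at these receptors, are phosphorylated when a ligand binds, and pass the signal on, among others to the NADPH oxidase RBOHD.

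The 250 bases upstream of the annotated start were read for 9 of the 10 genes, SOBIR1 left out, from RefSeq's TAIR10.1 assembly. They were searched on both strands for TTGACC and TTGACT, the W-box to which WRKY transcription factors bind. RefSeq places these starts 55 to 971 bases upstream of those in the deposited table (55 for BAK1, 971 for EFR), so these windows belong to the RefSeq gene models. All sequences shown, the BKK1 and SERK5 stretch below included, are those of the reference assembly. The sequence of the Landsberg erecta plants was not read here, so a match may be present or absent in them. The 3 genes with the steadiest rises (FLS2, BIK1, CERK1) are shown with BAK1, which held the most matches. Sequences run 5′ to 3′ on the gene's strand, and capitals mark a W-box on either strand.
FLS2 (chr5:18791325-18791574, plus strand): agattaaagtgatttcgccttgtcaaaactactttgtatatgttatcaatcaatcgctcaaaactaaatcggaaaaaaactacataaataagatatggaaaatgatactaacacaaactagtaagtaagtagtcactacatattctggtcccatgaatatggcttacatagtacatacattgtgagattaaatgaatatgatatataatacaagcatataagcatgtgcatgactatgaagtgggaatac
BAK1 (chr4:16090833-16091082, minus strand): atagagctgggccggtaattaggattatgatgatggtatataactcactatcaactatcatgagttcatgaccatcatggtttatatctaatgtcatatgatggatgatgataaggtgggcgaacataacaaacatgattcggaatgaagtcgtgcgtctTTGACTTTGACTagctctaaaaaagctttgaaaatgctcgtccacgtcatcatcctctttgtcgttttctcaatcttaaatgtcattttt
BIK1 (chr2:16531277-16531526, plus strand): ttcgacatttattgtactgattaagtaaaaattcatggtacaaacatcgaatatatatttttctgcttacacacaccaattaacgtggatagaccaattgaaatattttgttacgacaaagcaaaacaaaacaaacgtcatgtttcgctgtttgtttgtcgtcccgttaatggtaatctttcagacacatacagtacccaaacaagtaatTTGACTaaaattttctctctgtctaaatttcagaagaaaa
CERK1 (chr3:7618672-7618921, minus strand): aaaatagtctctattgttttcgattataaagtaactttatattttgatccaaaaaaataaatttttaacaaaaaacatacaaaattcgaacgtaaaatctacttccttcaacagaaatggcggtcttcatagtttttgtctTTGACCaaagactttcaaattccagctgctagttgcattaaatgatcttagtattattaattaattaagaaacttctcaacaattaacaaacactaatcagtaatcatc
BAK1 held 2 matches in tandem, which begin 90 and 84 bases before the start. BIK1 held 1 at 40 bases, CERK1 1 at 109, and BKK1, not shown, 1 at 183. FLS2, PBL1, EFR, LYK4 and LYK5 held none in this window. In all 4 of the 9 genes held a match, against 28.4% of 27443 windows of the same length upstream of protein-coding genes, and the shorter core TTGAC, which every W-box contains, was in 7 of 9 against 44.9%. Of the 8 genes that rose at 4 h, as described below, 4 held a W-box in the window (BAK1, BKK1, BIK1 and CERK1), against the same 28.4% of windows. LYK5, which was not called at 4 h, held the shorter core, while PBL1 and LYK4, which rose, did not. Whether these matches bear on the 4 h changes was not tested.

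The libraries held 6856882 to 15791296 gene reads on 22531 to 24808 loci, and ribosomal RNA loci, organellar ones included, took 28.4% to 37.3% of them in the 910 run and 42.8% to 47.1% in the 918 run. Levels are given as CPM, counts per 1000000 gene reads after TMM scaling, on which 3 reads amount to 0.161 to 0.488 CPM depending on the library. HEN2, which encodes a helicase of nuclear RNA decay and is the gene known as SMN2 from background knowledge and not from the labels, stood at 34.7 and 32.0 CPM in WT against 10.6 and 9.71 CPM in smn2 before flg22. After 4 h it stood at 55.7 and 50.01 CPM against 11.95 and 15.1 CPM. It was lower in smn2 by edgeR at both times, with log2 differences (± SE) of -1.71 ± 0.20 (adjusted p = 0.00679) and -1.97 ± 0.20 (adjusted p = 0.00481). The adjusted p at 0 h was 0.0656 when only the 4 libraries of 0 h were fitted, and at 4 h it was 0.0652 without WT 910, 0.0531 without WT 918 and 0.123 without smn2 910. Leaf mesophyll markers (5 of 5 detected in all 8 libraries) summed to 6881 to 7671 CPM at 0 h and to 1834 to 4638 CPM at 4 h, with 4638 and 4061 CPM in the 910 run (WT and smn2) and 1941 and 1834 CPM in the 918 run. Root markers summed to 144 to 215 CPM with 6 of 8 detected in every library, and none was at 0 in all. Most of this sum was PHO1 (108 to 157 CPM), and smaller markers moved. COBL9 and EXPA7 were lower at 4 h in both genotypes and runs (15.2 to 3.67 and 5.37 to 0.734 CPM in WT, run 910). In that run of WT, CASP1 fell from 42.8 to 24.4 CPM and NRT2.1 rose from 2.85 to 14.9 CPM. Both went the other way in smn2 in run 918. Guard cell markers summed to 47.4 to 75.6 CPM (5 of 5 detected) and vascular markers to 67.9 to 138 CPM (4 of 4), the latter 95.8 to 138 CPM at 0 h and 67.9 to 81.4 CPM at 4 h. The leaf mesophyll markers shifted unevenly. In WT, LHCB2.1 went from 692 to 22.2 CPM in run 918, and RBCS1A from 999 to 1106 CPM in run 910, although RBCS1A fell elsewhere. In RNA of whole seedlings, fewer cells of a type and less RNA of its markers per cell cannot be told apart. The part of these marker shifts in the 4 h changes below was not tested.

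The first question was how the receptor genes themselves stood 4 h into the flg22 treatment. FLS2, EFR, CERK1 and LYK4 rose in both genotypes, the SERK co-receptors and the cytoplasmic kinases rose with them, and LYK5 and SOBIR1 did not pass the test in either genotype. In WT 8 of the 10 genes were called higher and 0 lower at an adjusted p under 0.05, against 10.1% of the 19649 loci tested called higher and 6.56% lower. In smn2 8 of 10 were higher and 0 lower, against 12.6% of loci higher and 8.88% lower. All 10 passed the filter on low counts. The median log2 change of the 10 genes was 1.08 in WT and 1.76 in smn2, and that of all loci tested was -0.01 and -0.04. Counted by their values alone, 8 of 10 genes in WT had both 4 h libraries above both 0 h libraries and 1 had them below (29.6% and 29.8% of loci), and in smn2 all 10 had them above (30.7%) and 0 below (31.1%).

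**Figure D1:**
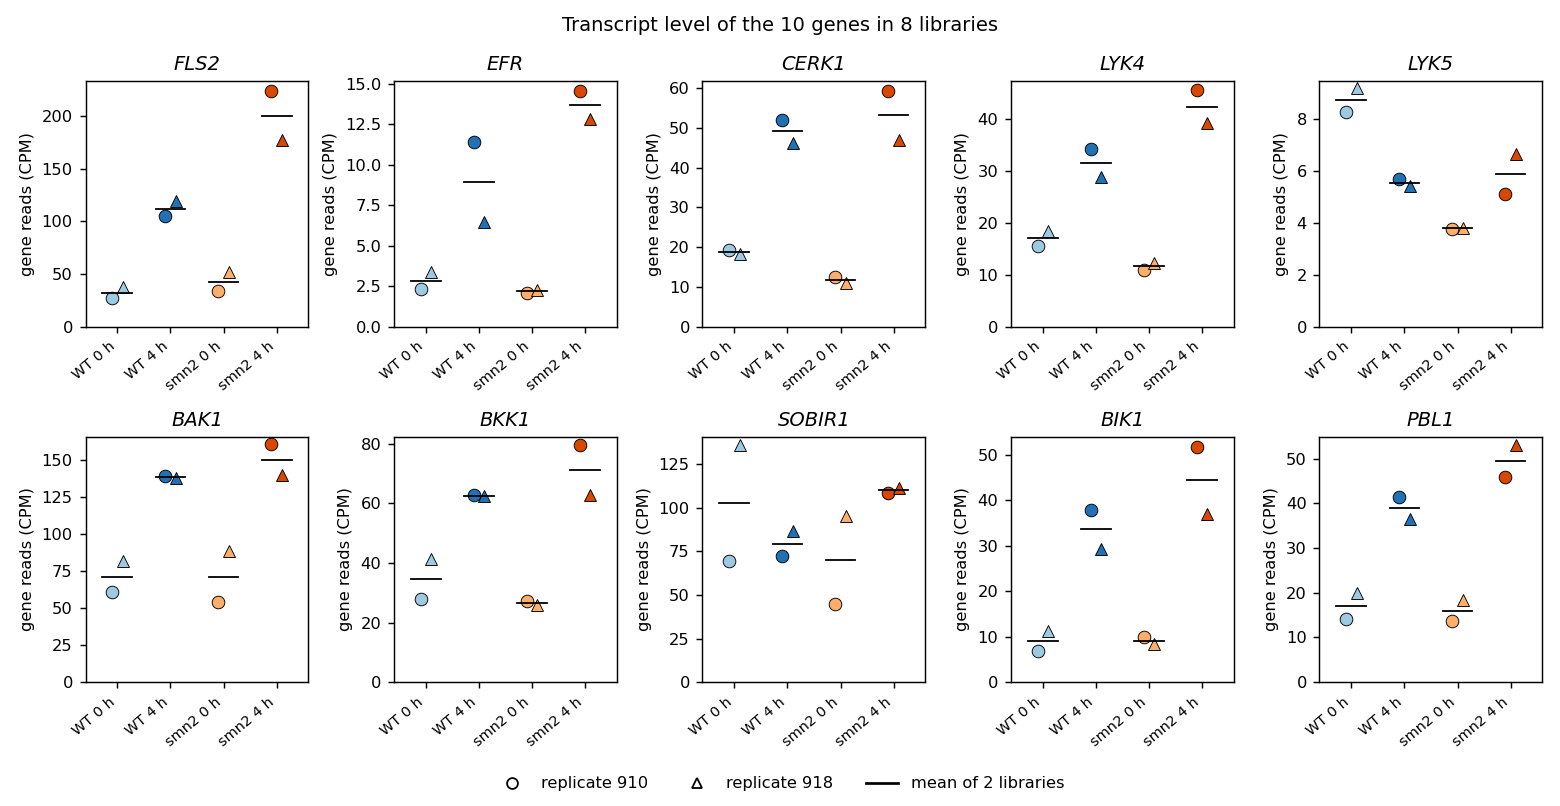
Gene reads in CPM (y axis, from 0, scaled for each gene) of the 10 genes in the 4 groups (x axis). Circles are libraries of run 910, triangles of run 918, and bars mark the mean of 2 libraries. FLS2 goes from 26.9 and 37.2 CPM in WT at 0 h to 224 and 177 CPM in smn2 at 4 h, while LYK5 is highest in WT at 0 h and SOBIR1 has its widest gap between runs there.

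FLS2 (AT5G46330; chromosome 5, 18791736 to 18795546, plus strand, TAIR10; 2 exons) had CPM values (run 910, then run 918, as in all pairs below) in WT of 26.9 and 37.2 before flg22 and 105 and 119.6 after 4 h, and in smn2 of 33.9 and 51.7 before and 224 and 177 after. All 4 libraries of 4 h lay above all 4 of 0 h, and the smn2 libraries of 4 h were the highest. FLS2 rose by a log2 of 1.81 ± 0.27 in WT (SE, edgeR adjusted p = 0.00220), a fold of 3.51 on 341 to 2060 reads per library over the experiment. In smn2 it rose by 2.23 ± 0.27 (adjusted p = 0.000583), a fold of 4.70. Its WT change ranked 734 of 19649 loci from the highest.

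EFR (AT5G20480; chromosome 5, 6922480 to 6925887, plus strand; 2 exons), the receptor gene for elongation factor Tu, had CPM values at 0 h of 2.31 and 3.36 in WT and 2.095 and 2.28 in smn2, against 11.4 and 6.48 (WT) and 14.6 and 12.8 (smn2) at 4 h. The 4 h libraries lay above the 0 h libraries in both genotypes, and the WT libraries of 4 h stood far apart. EFR rose by 1.69 ± 0.34 in WT (adjusted p = 0.00954) and by 2.65 ± 0.36 in smn2 (adjusted p = 0.00104), the largest change of the 10 genes in smn2. These values rest on 15 to 134 reads per library, and the WT call was lost without the 910 library of 0 h (adjusted p = 0.0871) or of 4 h (0.0831).

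CERK1 (AT3G21630; chromosome 3, 7615385 to 7618581, minus strand; 12 exons), the chitin co-receptor gene, had CPM values in WT of 19.4 and 18.3 before flg22 and 52.0 and 46.3 after 4 h, and in smn2 of 12.5 and 10.9 before and 59.4 and 47.0 after. Its libraries paired most closely in WT at 0 h and stood furthest apart in smn2 at 4 h. At 0 h both smn2 libraries were under both WT libraries. CERK1 rose by 1.38 ± 0.20 in WT (adjusted p = 0.00182) and by 2.18 ± 0.21 in smn2 (adjusted p = 0.000173).

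LYK4 (AT2G23770; chromosome 2, 10120242 to 10122080, minus strand; 1 exon), which encodes a LysM protein that assists chitin perception, had CPM values in WT of 15.5 and 18.5 before flg22 and 34.2 and 28.7 after 4 h, and in smn2 of 10.98 and 12.1 before and 45.5 and 39.2 after. The order of the groups was the same in both runs, with smn2 lowest at 0 h and highest at 4 h. LYK4 rose by 0.89 ± 0.20 in WT (adjusted p = 0.0161) and by 1.88 ± 0.21 in smn2 (adjusted p = 0.000387). The WT call was lost without the 910 library of 0 h (adjusted p = 0.124) or of 4 h (0.109), and against a fold of 1.5 (0.177).

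LYK5 (AT2G33580; chromosome 2, 14219623 to 14221861, minus strand; 1 exon), the gene of the main chitin-binding receptor, had CPM values in WT of 8.27 and 9.18 before flg22 and 5.66 and 5.42 after 4 h, and in smn2 of 3.77 and 3.79 before and 5.11 and 6.66 after. It was the one member whose 4 h libraries both lay under the 0 h libraries in WT, while in smn2 they both lay above. Neither change passed the test: the log2 value was -0.65 ± 0.26 in WT (adjusted p = 0.127) and 0.63 ± 0.28 in smn2 (adjusted p = 0.150). The counts behind it were 25 to 154 reads per library.

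Of the co-receptor genes, BAK1 (AT4G33430; chromosome 4, 16086311 to 16090777, minus strand; 14 exons) had CPM values in WT of 60.8 and 81.6 before flg22 and 139 and 137 after 4 h, and in smn2 of 54.1 and 88.3 before and 160.3 and 139 after. The libraries of 4 h agreed closely and lay above those of 0 h, where run 918 was the higher in both genotypes. BAK1 rose by 0.96 ± 0.26 in WT (adjusted p = 0.0353) and by 1.08 ± 0.26 in smn2 (adjusted p = 0.0180). These calls were lost in more alternatives than those of any other of the 10 genes. The WT call was lost in 7 of 17 alternatives, namely without any 1 of the 4 WT libraries or of the 2 smn2 libraries of 4 h (adjusted p from 0.0541 to 0.217), and against a fold of 1.5 (0.209). Its smn2 call was lost in 4, without smn2 910 at 0 h (0.0947), smn2 910 at 4 h (0.0994) or smn2 918 at 4 h (0.0574), and against that fold (0.102).

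BKK1 (AT2G13790; chromosome 2, 5741820 to 5746793, plus strand; 11 exons), a close relative of BAK1 with overlapping roles, had CPM values in WT of 27.9 and 41.4 before flg22 and 62.7 and 62.4 after 4 h, and in smn2 of 27.1 and 25.8 before and 79.7 and 62.9 after. Libraries of 4 h were above those of 0 h in both genotypes. BKK1 rose by 0.86 ± 0.23 in WT (adjusted p = 0.0303) and by 1.43 ± 0.23 in smn2 (adjusted p = 0.00243). The WT call was lost without WT 910 at 0 h (adjusted p = 0.208), WT 910 at 4 h (0.116) or WT 918 at 4 h (0.113), and against a fold of 1.5 (0.259).

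BKK1 shares sequence with its neighbour SERK5, another member of the SERK family, and the authors' counting could split reads between them. Their coding sequences are identical at 91.2% of 1806 aligned bases, with a longest identical run of 473 bases. A stretch of 120 coding bases from TAIR10.1 is shown because it spans the edge of that run: the first 60 bases differ at 4 places, in capitals, and the rest are the same in both genes.
BKK1 (chr2:5745949-5746068, plus strand): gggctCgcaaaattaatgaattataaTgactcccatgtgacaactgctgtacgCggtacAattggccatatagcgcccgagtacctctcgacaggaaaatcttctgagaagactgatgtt
SERK5 (chr2:5756433-5756552, plus strand): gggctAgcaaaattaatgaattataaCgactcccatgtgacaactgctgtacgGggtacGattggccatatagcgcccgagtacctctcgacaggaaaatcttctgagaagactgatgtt
Accordingly 62.0% to 71.5% of BKK1 reads per library were uniquely placed, and 58.0% to 67.0% of SERK5 reads, while the other 9 genes had 94.7% or more. With uniquely placed reads alone BKK1 rose by 0.93 in WT (adjusted p = 0.0207) and by 1.28 in smn2 (adjusted p = 0.00412). SERK5 had CPM values in WT of 4.72 and 8.49 before flg22 and 11.7 and 10.5 after, and in smn2 of 5.45 and 5.61 before and 12.2 and 17.7 after. Both BKK1 and SERK5 values are uncertain by the reads they share.

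SOBIR1 (AT2G31880; chromosome 2, 13554894 to 13556977, plus strand; 1 exon) had CPM values in WT of 69.6 and 136 before flg22 and 72.3 and 86.5 after 4 h, and in smn2 of 44.7 and 95.6 before and 109 and 112 after. At 0 h run 918 lay far above run 910 in both genotypes, and in WT the 2 times overlapped. The log2 values were -0.37 ± 0.38 in WT (adjusted p = 0.552) and 0.66 ± 0.38 in smn2 (adjusted p = 0.255), with the widest errors of the 10 genes. The WT value was 0.19 without WT 918 at 0 h, and the smn2 value was called without smn2 918 at 0 h (1.302, adjusted p = 0.0432) or without the filter on low counts (0.0426). SOBIR1 overlaps AT2G31890 by 478 bp, so reads there cannot be assigned without strand, which is not given in the sources used here.

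BIK1 (AT2G39660; chromosome 2, 16531688 to 16533931, plus strand; 6 exons), the cytoplasmic kinase gene best known from FLS2 signalling, had CPM values in WT of 6.82 and 11.2 before flg22 and 38.0 and 29.4 after 4 h, and in smn2 of 9.97 and 8.34 before and 51.8 and 37.1 after. The times did not overlap in either genotype. BIK1 rose by 1.92 ± 0.29 in WT (adjusted p = 0.00236), the largest WT change of the 10 genes, and by 2.27 ± 0.30 in smn2 (adjusted p = 0.000809).

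PBL1 (AT3G55450; chromosome 3, 20557899 to 20560212, plus strand; 9 exons), its close relative, had CPM values in WT of 14.0 and 19.9 before flg22 and 41.3 and 36.5 after 4 h, and in smn2 of 13.7 and 18.4 before and 45.8 and 53.0 after. Libraries of 4 h were again above those of 0 h. PBL1 rose by 1.20 ± 0.24 in WT (adjusted p = 0.00854) and by 1.63 ± 0.24 in smn2 (adjusted p = 0.00158). The WT call was lost without the 910 library of 0 h (adjusted p = 0.0747) or of 4 h (0.0596).

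**Figure D2:**
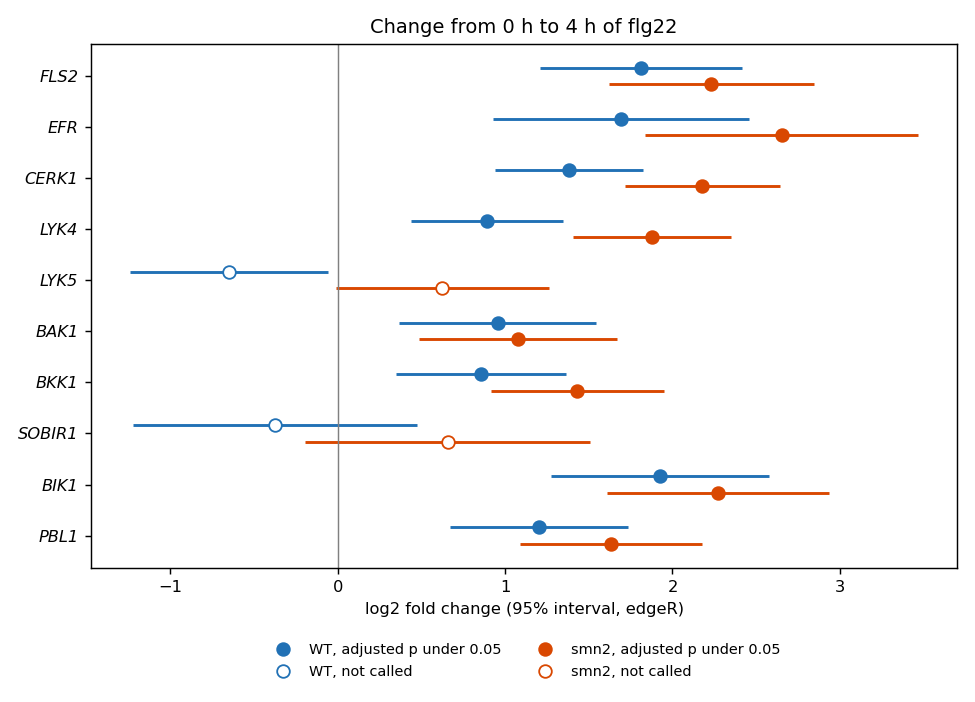
Log2 fold change from 0 h to 4 h (x axis) of the 10 genes (y axis) in WT (blue) and smn2 (orange), with 95% intervals from edgeR. Filled circles passed an adjusted p of 0.05. LYK5 and SOBIR1 are open in both genotypes, and the others lie between 0.86 and 2.65.

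Without 1 WT library the number of members called higher in WT was 3 (without 910 at 0 h or without 910 at 4 h), 7 (without 918 at 0 h) and 6 (without 918 at 4 h), and it was 5 against a fold of 1.5. The 3 left without either 910 library were FLS2, BIK1 and CERK1, which were called higher in both genotypes under all 17 alternatives. In smn2 the number was 7 to 9 over the libraries left out in turn. In the 8 called genes both 4 h libraries lay above both 0 h libraries in each genotype, so their changes within single runs are positive by construction. These changes ran from 0.59 (BKK1, WT, run 918) to 2.71 (FLS2, smn2, run 910).

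Levels can be set against each other only per length, as exon CPM per kb of exon. The limits given above carry over to these levels and their ratios: BKK1 shares reads with SERK5, and SOBIR1 overlaps AT2G31890. In WT at 0 h the order was SOBIR1 (49.4 ± 22.7, mean ± SD, n = 2), BAK1 (24.9 ± 5.10), BKK1 (14.6 ± 4.44), PBL1, LYK4, CERK1 and FLS2 (9.43 to 8.58), BIK1 (5.04 ± 1.69), LYK5 (3.90 ± 0.289) and EFR (0.838 ± 0.202). PBL1, LYK4, CERK1 and FLS2 overlapped with their neighbours in that order, as did BIK1 with LYK5, and the other neighbours did not. In WT at 4 h BAK1 led (48.3 ± 0.429), followed by SOBIR1 (38.1 ± 4.84) and FLS2 (30.1 ± 2.79), and LYK5 (2.48 ± 0.0756) overlapped with EFR (2.70 ± 1.05) at the bottom. In smn2 at 0 h SOBIR1 (33.6 ± 17.3) and BAK1 (24.8 ± 8.85) overlapped at the top, with FLS2 next (11.5 ± 3.38), LYK5 at 1.69 ± 0.00689 and EFR lowest (0.645 ± 0.0563). In smn2 at 4 h FLS2 (53.8 ± 8.82), SOBIR1 (52.9 ± 0.979) and BAK1 (52.4 ± 5.29) were not separated by their spread. BKK1, PBL1, CERK1, BIK1 and LYK4 followed at 29.8 to 23.0, each overlapping with the next, before EFR (4.12 ± 0.366) and LYK5 (2.63 ± 0.491).

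Ratios of these levels were formed inside each library. The ratio of FLS2 to its co-receptor BAK1 was 0.337 and 0.351 in WT at 0 h and 0.578 and 0.667 at 4 h. In smn2 it was 0.490 and 0.447 at 0 h and 1.07 and 0.976 at 4 h. No group overlapped with another: the ratio lay higher at 4 h than at 0 h in each genotype and higher in smn2 than in WT at each time. How many pairs of other genes separate the groups in this way was not counted. The ratio of SOBIR1 to BAK1 was 1.57 and 2.30 in WT at 0 h and 0.713 and 0.865 at 4 h, and in smn2 1.15 and 1.48 at 0 h and 0.929 and 1.101 at 4 h. Although the level of SOBIR1 differed widely between runs at 0 h, this ratio was lower at 4 h in both genotypes with no overlap.

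The ratio of LYK4 to LYK5 was 2.28 and 2.45 in WT at 0 h and 7.35 and 6.44 at 4 h, and 3.54 and 3.90 in smn2 at 0 h and 10.8 and 7.16 at 4 h. It was higher at 4 h in both genotypes, whichever way LYK5 itself went. The ratio of BIK1 to PBL1 was 0.496 and 0.562 in WT at 0 h and 0.921 and 0.790 at 4 h. In smn2 it was 0.746 and 0.466 at 0 h and 1.13 and 0.703 at 4 h, so the times overlapped there. The ratio of BKK1 to BAK1 stayed between 0.356 and 0.624 in all 8 libraries. The ratio of EFR to FLS2 was 0.0969 and 0.0982 in WT at 0 h and 0.122 and 0.0609 at 4 h, so the times overlapped. In smn2 it was 0.0665 and 0.0494 at 0 h and 0.0731 and 0.0813 at 4 h. For CERK1 over FLS2 the times overlapped in both genotypes. No test was run on the ratios.

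**Figure D3:**
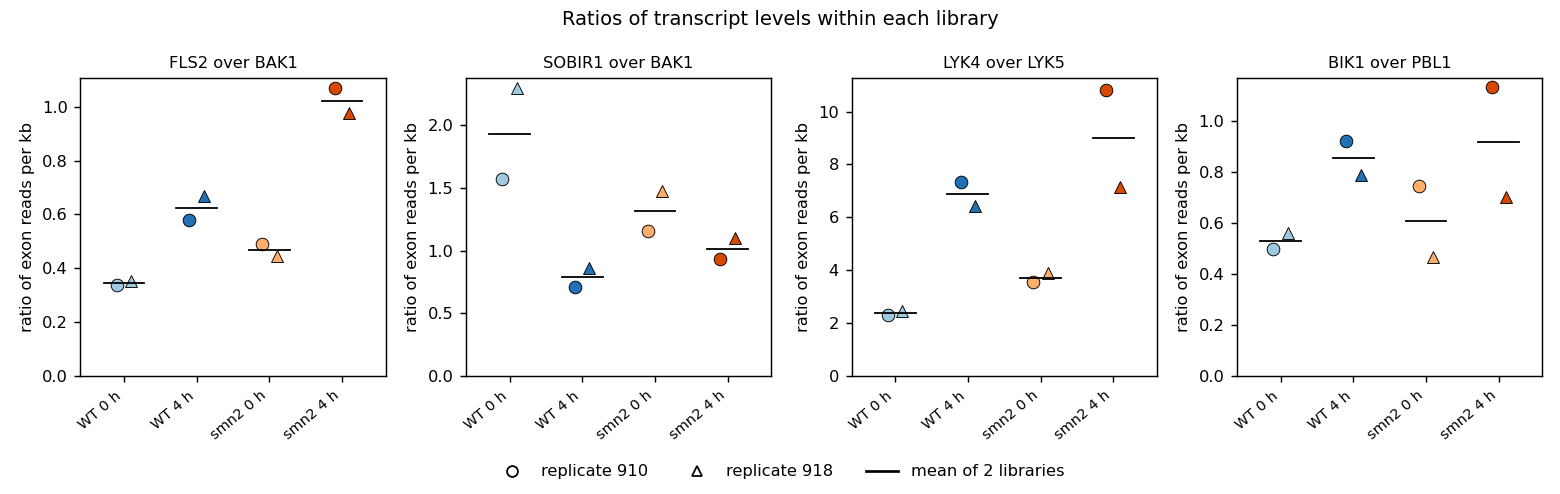
Ratio of exon reads per kb (y axis, from 0) between pairs of genes inside each library, by group (x axis). Circles are run 910, triangles run 918, bars the mean of 2 libraries. FLS2 over BAK1 separates the 4 groups, from 0.337 in WT at 0 h to 1.07 in smn2 at 4 h, and SOBIR1 over BAK1 is lower at 4 h. The share of other gene pairs that separate so was not counted.

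The second question was whether the receptor and kinase transcripts differed between smn2 and WT. Before flg22, the smn2 value lay under the WT value in both runs for CERK1, LYK4, LYK5, BKK1, EFR, PBL1 and SOBIR1, and over it in both runs for FLS2. The share of all loci with such a pattern was not counted, so it is not read as a result about these genes. For PBL1 the log2 differences were only -0.036 (run 910) and -0.12 (run 918), and for BKK1 -0.044 in run 910. The groups of FLS2, BAK1, BIK1, PBL1 and SOBIR1 overlapped between the genotypes. None of the 10 genes was called by edgeR at 0 h (3 at an unadjusted p under 0.05, as were 2008 loci or 10.2%) or by DESeq2 (2 unadjusted, as were 1534 loci), against 0.733% of the loci tested called higher and 0.270% lower. These 197 loci were 144 higher and 53 lower, and 224 higher and 89 lower with the run as a replicate block, under which the members were again not called. With only the 4 libraries of 0 h the counts were 16 higher and 0 lower, and without 1 library 17 to 107 higher and 3 to 76 lower (17 and 3 without WT 918 at 0 h). In smn2 both libraries of BKK1, EFR, CERK1, LYK4 and LYK5 lay under both WT libraries, 5 of 10 genes against 20.0% of loci, and 0 of 10 lay above (18.6% of loci). The log2 difference was -1.20 ± 0.27 for LYK5 (edgeR adjusted p = 0.0948), -0.68 ± 0.20 for CERK1 (adjusted p = 0.231) and -0.56 ± 0.21 for LYK4 (adjusted p = 0.378), the 3 genes under 0.05 without adjustment. LYK5 passed only without the filter on low counts (adjusted p = 0.0236), and over the 17 alternatives its adjusted p ran from 0.0236 to 0.421 with a log2 difference between -1.28 and -1.13. The 95% interval for FLS2 was -0.18 to 1.01 and that for BAK1 -0.59 to 0.58, which leaves room for no difference and for differences up to these bounds.

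At 4 h none of the 10 genes was called either (1 at an unadjusted p under 0.05 by edgeR, as were 1560 loci or 7.94%, and 1 by DESeq2, as were 1093 loci), against 0.280% of loci higher and 0.0305% lower. These 61 loci were 55 higher and 6 lower, and 108 higher and 8 lower with the run as a replicate block, again with no member called. Without 1 library the counts were 6 to 69 higher and 0 to 9 lower (6 and 0 without WT 918 at 4 h). All 10 log2 differences were positive, from 0.07 (LYK5) to 0.84 (FLS2), with a median of 0.37 against -0.01 for all loci. The median of the 5 lists of related genes described below was 0.18. The share of all loci with a positive difference was not counted, so the shared direction is not read as a result about these genes. In 7 of 10 genes both smn2 libraries lay above both WT libraries (20.1% of loci) and in 0 below (19.4%), the 7 being FLS2, BAK1, BKK1, PBL1, EFR, LYK4 and SOBIR1. FLS2 stood at 224 and 177 CPM in smn2 against 105 and 119.6 CPM in WT, a log2 difference of 0.84 ± 0.26 (edgeR adjusted p = 0.397, under 0.05 without adjustment). Its 95% interval was 0.25 to 1.42, and the difference was 1.09 within run 910 and 0.57 within run 918.

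**Figure D4:**
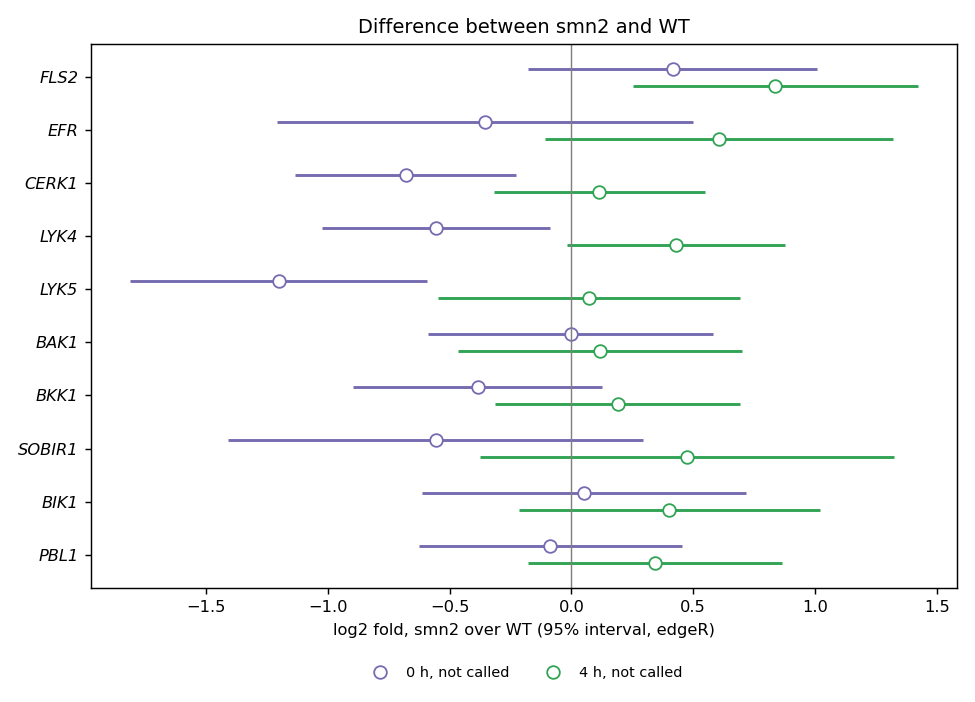
Log2 difference of smn2 over WT (x axis) for the 10 genes (y axis) at 0 h (purple) and 4 h (green), with 95% intervals from edgeR. No gene passed an adjusted p of 0.05 at either time, so all circles are open. LYK5 at 0 h lies lowest at -1.20 and FLS2 at 4 h highest at 0.84.

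The third question was whether the 4 h change itself differed between the genotypes. The smn2 value lay above the WT value for all 10 genes, by 0.12 (BAK1) to 1.27 (LYK5) on the log2 scale, with a median of 0.69 against -0.00409 for all loci. The 5 lists of related genes described below had a median of 0.29. The share of all loci with a difference in that direction was not counted, so the direction is not read as a result about these genes. None of the 10 differences was called by edgeR or DESeq2. Over all loci edgeR called 0 of 19649 (0.00% in either direction) and DESeq2 called 29. By edgeR 3 of the 10 genes were at an unadjusted p under 0.05, as were 847 loci or 4.31%. By DESeq2 4 were, as were 602 loci. The difference was 1.27 ± 0.39 for LYK5 (edgeR adjusted p = 0.884), 0.99 ± 0.29 for LYK4 (adjusted p = 0.853) and 0.80 ± 0.28 for CERK1 (adjusted p = 0.99999). At 4 h the genotypes overlapped in CERK1 and LYK5, and in LYK4 both smn2 libraries lay above both WT libraries. The interval for FLS2 was -0.41 to 1.25, which leaves room for no difference and for one larger than the rise of LYK4 in WT.

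The title of the series concerns regions whose degradation depends on SMN2, so intron reads of the 10 genes were set against exon reads. LYK4, LYK5 and SOBIR1 have 1 exon in the deposited annotation, and FLS2, BIK1, PBL1 and EFR had 2 to 44 intron reads over all 8 libraries, too few to test. BAK1 had intron shares of 1.06% to 1.45% in WT and 0.687% to 3.10% in smn2, BKK1 4.06% to 8.08% and 4.12% to 7.74%, and CERK1 2.16% to 5.26% and 2.08% to 4.70%. The shares of the genotypes overlapped in all 3. The log2 difference of intron over exon reads, smn2 against WT, was 0.27 ± 0.42 for BAK1, 0.22 ± 0.36 for BKK1 and -0.22 ± 0.46 for CERK1, none of them called by edgeR (adjusted p of 0.854, 0.864 and 0.899; 0 at an unadjusted p under 0.05). Of 4539 loci tested 116 were called higher (2.56%) and 1 lower (0.0220%), and the median of all was 0.26.

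By its pattern over the 8 libraries FLS2 was compared with every tested locus outside the 10 genes, using the root mean square difference of log2 CPM after centring each locus on its own mean. The nearest were ACS7 (0.206), an enzyme gene of ethylene synthesis, CMPG2 (0.233), AT5G09800 (0.236), WRKY45 (0.237), a WRKY transcription factor gene, and ADC1 (0.251), which encodes an arginine decarboxylase. Since they were chosen over these same libraries, their 4 h changes are a description: the log2 values were 1.55 and 2.45 for ACS7 (WT and smn2), 1.88 and 2.22 for CMPG2, 2.28 and 2.45 for AT5G09800, 1.78 and 2.86 for WRKY45 and 1.68 and 2.02 for ADC1. Among the members BIK1 was nearest to FLS2 (0.330, rank 46 among 19649 loci), then EFR (0.385, rank 111) and PBL1 (0.426, rank 200). LYK4, CERK1, BAK1 and BKK1 ranked 482 to 822, SOBIR1 5716 and LYK5 11571.

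Beyond the 10 genes, 58 further genes around the receptor complex were examined in 5 lists, of which 54 passed the filter on low counts. After 4 h, 17 rose and 1 fell in WT (all loci: 10.1% rose and 6.56% fell), while 22 rose and 1 fell in smn2 (all loci: 12.6% and 8.88%), with medians of 0.25 and 0.53. None was called in either comparison of genotypes or in the difference of the 4 h changes. Regulators of the receptor complex held the largest rises of the 5 lists, with 7 of 20 tested higher and 1 lower in each genotype and medians of 0.20 and 0.45. IOS1, a malectin-like receptor kinase gene that acts with FLS2 and BAK1, rose by 4.58 ± 0.34 in WT and 5.41 ± 0.36 in smn2 (adjusted p = 0.000102 and 3.05e-05). The ubiquitin ligase genes PUB22 (3.64 ± 0.30 and 4.62 ± 0.32) and PUB23 (3.20 ± 0.31 and 3.66 ± 0.32), known as brakes on flg22 signalling, rose with it. AT1G27190 from the same list was lower, at -0.74 ± 0.21 in WT (adjusted p = 0.0376) and -0.86 ± 0.21 in smn2 (0.0182), calls that were lost in 8 of 17 alternatives in WT and in 5 of 17 in smn2.

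Among other pattern receptors and LysM proteins 7 of 13 tested were higher in each genotype, against 10.1% and 12.6% of all loci. The medians were 0.88 and 0.99, and AT1G74360 led (3.14 ± 0.25 and 3.57 ± 0.25). Of the other receptor-like cytoplasmic kinases 2 of 13 were higher in WT, against 10.1% of all loci, and 6 of 13 in smn2, against 12.6% (medians 0.35 and 0.60). In the SERK family outside BAK1 and BKK1, 0 of 3 were called in WT and 1, SERK5, in smn2 (1.43 ± 0.33, adjusted p = 0.0144). Of 5 direct outputs of the cytoplasmic kinases 1 was higher in each genotype, against 10.1% and 12.6% of all loci. The list medians were -0.01 in WT and -0.13 in smn2, and 4 genes were not called. The gene called was RBOHD, the oxidase gene (1.05 ± 0.29 in WT and 1.76 ± 0.29 in smn2, edgeR adjusted p = 0.0347 and 0.00286). SERK5 and RBOHD were named after their values were seen.

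**Figure D5:**
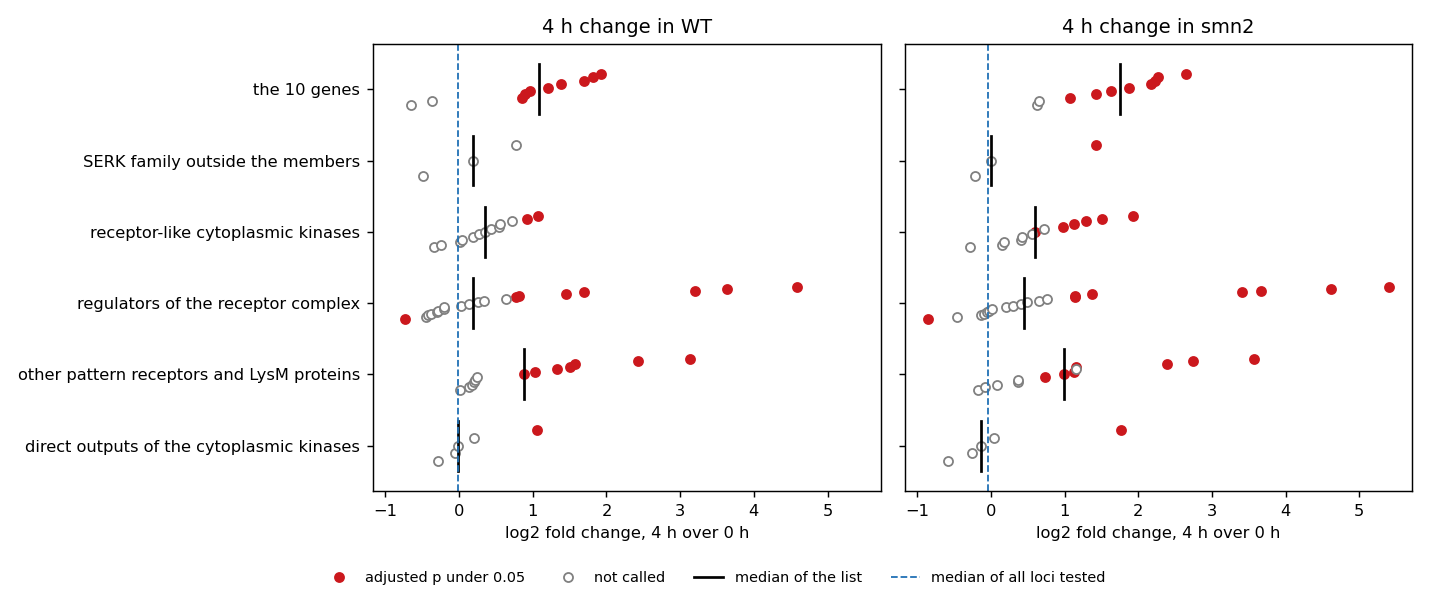
Log2 change from 0 h to 4 h (x axis) in WT and smn2 for the 10 genes and for 5 lists of related genes (y axis), 1 circle per gene tested. Red circles passed an adjusted p of 0.05, black bars mark list medians and the dashed line the median of all loci. The medians of the 10 genes are 1.08 and 1.76, and single regulators reach 4.58 in WT and 5.41 in smn2.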

How the data were processed

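Poly(A) RNA of 8 seedling libraries was read on an Ion Proton instrument, per the labels' protocols and the file headers. The deposited counts are whole reads per locus (genes, exons and introns, total and uniquely placed), from trimmed single reads per the file headers and on TAIR10 per the submitters' processing notes; aligner, annotation release and strand setting were not given in the sources used here. Total gene reads, which equal exon plus intron reads, were tested in edgeR 4.0.16 (R 4.3.3; TMM, filterByExpr, quasi-likelihood, all 8 libraries, 1 coefficient per group, 4 residual degrees of freedom), with Benjamini-Hochberg adjustment over 19649 loci within each of 5 comparisons and a threshold of 0.05. The biological coefficient of variation common to all loci came to 0.229. DESeq2 1.42.0 and other alternatives are named in the closing section. The 10 genes, the 5 lists, the markers and the naming rules were chosen with earlier results of these data known. Always named were the 10 genes and HEN2, then the 5 loci nearest to FLS2 and, per comparison, up to 4 listed genes with the largest rise and 4 with the largest fall past the threshold. The numbers 910 and 918 mark sequencing runs per the file headers and pair the libraries by run; deviations of same-numbered libraries correlated at 0.0477 to 0.452 over 6 pairs of groups. RefSeq spans of 28009 loci matched by locus tag overlap the deposited spans in all 28009 cases. Counting error alone sets the 3-read floor. The sequence upstream of SOBIR1 is not reported here.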

Additional observations from a re-analysis of the deposited data

Results flagged for a closer look

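Among the members only LYK5 was flagged, because its 4 h change went opposite ways in the 2 genotypes in both runs. How many of all loci show such a pattern was not counted, so it is not read as a result about LYK5. In WT the log2 change was -0.53 in run 910 and -0.74 in run 918, and in smn2 it was 0.42 and 0.78. The difference of the changes was tested and was not called: 1.27 (SE 0.39, edgeR adjusted p = 0.884). It rests on 25 to 154 reads per library.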

How the results depend on the processing

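For the 10 genes, 876 values were recomputed under alternatives: 829 kept their direction and their side of the threshold, 22 lost a call, 3 gained one and 22 changed sign. The sign changes all concerned values that were not called. They were BAK1 at 0 h between genotypes with DESeq2 size factors (0.00438), DESeq2 (0.00191), uniquely placed reads (0.00242) or only the 4 libraries compared (0.0169), and CERK1 introns at 0 h alone (0.0390). The others came from leaving out 1 library, over which smn2 against WT at 0 h ran from -0.40 to 0.31 for BAK1, -0.28 to 0.43 for BIK1, -0.33 to 0.18 for PBL1 and -1.20 to 0.00329 for SOBIR1. At 4 h it ran from -0.0667 to 0.27 for CERK1 and -0.12 to 0.26 for LYK5, and the difference of changes from -0.19 to 0.51 for BAK1 and -0.0317 to 0.68 for BIK1. The WT change of SOBIR1 ran from -0.78 to 0.19, and intron differences from -0.44 to 0.66 (BAK1), -0.0772 to 0.51 (BKK1) and -0.47 to 0.20 (CERK1). The cause was not tested.

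With DESeq2 the genotype counts were 231 higher and 118 lower at 0 h, 137 and 18 at 4 h, and 26 and 3 for the difference of changes. Without the filter on low counts they were 435 and 438, 339 and 141, and 148 and 37, 1 member (LYK5) was lower at 0 h, and 2117 loci were lower at 4 h in WT. Against a fold of 1.5 the counts were 993 and 544 in WT (5 members higher), 1388 and 680 in smn2, 69 and 17 at 0 h and 23 and 3 at 4 h. With only the 4 libraries compared, 16 were higher and 0 lower at 0 h, and 10 lower at 4 h. With the run as a replicate block the counts were 224 and 89 at 0 h and 108 higher at 4 h, 4 loci had lower intron reads, and no member's call changed.

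Leaving out 1 library gave 884 to 2143 higher and 468 to 1463 lower in WT (3 to 8 members), 1469 to 2370 and 600 to 1649 in smn2, 17 to 107 and 3 to 76 at 0 h, and 6 to 69 and 0 to 9 at 4 h. For intron reads it gave 46 to 99 higher and 0 to 2 lower. Intron counts were 0 lower with uniquely placed reads, 29 higher with at least 10 intron reads in every library, 48 higher at 0 h alone, and 13 higher and 0 lower at 4 h alone.

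EFR rests on 15 to 134 reads per library and LYK5 on 25 to 154, and each group has 2 libraries.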
